A study of Mus musculus with 77 samples.

Results

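Genes of the lysosomal proton pump, of the cathepsin proteases and of the LAMP membrane proteins were followed across 8 groups of ribosome-bound messenger RNA from striatal neurons. They were taken as every array probe set whose only annotated symbol starts with Atp6v or Atp6ap, is Cts followed by a letter, or is Lamp1 to Lamp5. This gave 43 genes on 85 probe sets, among 18194 genes on the array with a probe set of a single symbol. Where a gene had several probe sets, the brightest on average stands for it, and 30 of the 43 genes passed the filter on dim genes (a mean above 3.55 on the log2 scale, the 40th percentile of all probe set means). These 30 were 10 of 12 V1 subunits, 6 of 8 V0 subunits, both accessory proteins, 9 of 18 cathepsins and all 3 LAMP genes present. The 13 below the filter were the V-ATPase isoforms Atp6v0a4, Atp6v0d2, Atp6v1b1 and Atp6v1c2 and the cathepsins Ctsc, Ctsg, Ctsh, Ctsj, Ctsk, Ctsm, Ctsq, Ctsr and Ctsw, whose means lay between 2.32 (Ctsj) and 3.25 (Atp6v0a4).

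The 77 arrays came from male C57BL/6J mice of 9 to 14 weeks, 1 mouse to an array. Translating ribosome affinity purification pulled down messenger RNA on ribosomes tagged with EGFP-L10a, a transgene driven by Drd1 in line CP73 (spiny projection neurons of the direct pathway, dSPN) or by Drd2 in line CP101 (those of the indirect pathway, iSPN). Each cell type is represented by 1 transgenic line, and the tissue was the dorsal striatum on the operated side. Lesioned mice received 6-OHDA, a toxin of dopamine neurons, in the medial forebrain bundle of 1 side at 3.2 µg/µl, and mock mice the vehicle; lesioned mice were kept only if their behaviour showed a successful lesion. P-values measure the spread between mice. In dSPN there were 10 mock-lesioned mice on saline, 11 lesioned on saline, 12 lesioned on low-dose levodopa and 11 lesioned on high-dose levodopa; in iSPN these numbers were 10, 7, 8 and 8. The low regimen gave levodopa at 1 mg/kg for days 1 to 3, then at 2 mg/kg up to day 9. The high regimen gave 3 and then 6 mg/kg, and both came with 12 mg/kg benserazide, which blocks the conversion of levodopa outside the brain. The labels give no benserazide dose for saline mice, so levodopa and benserazide cannot be told apart against saline.

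As background, the vacuolar proton pump (V-ATPase) acidifies lysosomes, endosomes and synaptic vesicles. Its V1 sector splits ATP in the cytosol and turns a rotor that drives protons through the V0 sector in the membrane, and the a subunit isoforms direct pumps to different organelles. The low pH activates cathepsins, the proteases that degrade proteins delivered by endocytosis and autophagy, and the heavily glycosylated LAMP proteins line the lysosomal membrane. Many lysosomal genes carry the E-box CACGTG near the start, a motif that TFEB and related factors recognise.

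Promoter sequences are shown for the 4 members with a CACGTG whose called differences between treatments were largest, so that a reader can see where the motif lies in genes that rose (Ctsl, Atp6v0d1) and in genes that fell (Ctsd, Lamp1). They are RefSeq promoters of build GRCm38.p6, 5′ to 3′ on the gene's strand, with CACGTG in capitals; position 1 is the annotated start and -1 the base before it. The Ctsl stretch is chr13:64370739-64370768 on the minus strand (bases -248 to -219), the Ctsd stretch chr7:142387908-142388077 on the minus strand (-250 to -81), the Atp6v0d1 stretch chr8:105566050-105566079 on the minus strand (-15 to 15) and the Lamp1 stretch chr8:13159088-13159160 on the plus strand (-73 to -1).
Ctsl: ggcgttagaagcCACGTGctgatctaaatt
Atp6v0d1: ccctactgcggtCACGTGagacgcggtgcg
Ctsd: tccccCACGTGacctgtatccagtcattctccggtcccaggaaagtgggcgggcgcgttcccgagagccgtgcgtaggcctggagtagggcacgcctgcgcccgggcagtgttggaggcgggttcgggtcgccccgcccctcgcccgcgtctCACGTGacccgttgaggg
Lamp1: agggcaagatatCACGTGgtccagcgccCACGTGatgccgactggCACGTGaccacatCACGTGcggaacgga
Lamp1 held 4 copies within the last 61 bases before its start, Ctsd held 2, and the copy in Atp6v0d1 spans the start. Of the 43 members, 33 were in the promoter table, and 9 of these (27.3%) held CACGTG in the window of 250 bases before to 50 bases after the start, on either strand, against 8.09% of all 27025 gene symbols in the table. The other holders were Atp6v0b and Ctsa with 2 copies each and Atp6v0e, Atp6v1a and Ctsf with 1. The longer CLEAR palindrome, which contains CACGTG, was in none of the 33 (0.37% of all symbols), and the cAMP response element TGACGTCA was also in none (2.03%). Members that rose and members that fell are both among the 9, and a match describes letters, not binding.

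The array values are log2 intensities, and their number per group limits the precision. The tagged line was visible in every group mean of the receptor genes: Drd1 averaged 11.45 to 11.80 in the dSPN groups and 9.27 to 10.07 in the iSPN groups, and Drd2 6.60 to 7.55 against 12.22 to 12.42. The activity gene Fosb was 3.80 higher on the log2 scale under high-dose levodopa than under saline in lesioned dSPN (limma, adjusted p = 3.05e-26), and Arc 4.16 higher. Array values correlated with their own group at a median of 0.939 to 0.9796. The 3 arrays below 0.95 were 1 of lesioned iSPN on saline and 2 of mock iSPN. The sample titles fall into 7 runs of numbers that no source used here explains, and no run holds both lines.

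RNA of glial cells moved with levodopa in dSPN and is set beside the results. The mean of 9 oligodendrocyte markers was 7.74 ± 0.34 (SD, n = 11) in lesioned dSPN on saline, 6.60 ± 0.36 (n = 12) at the low and 6.52 ± 0.38 (n = 11) at the high dose; 8 of the 9 fell at each dose. The mean of 10 astrocyte markers was 6.26 ± 0.21, 5.55 ± 0.30 and 5.62 ± 0.30, and of its 9 tested genes 4 fell at the low and 5 at the high dose. The mean of 13 microglia markers was 4.73 ± 0.18, 4.62 ± 0.12 and 4.68 ± 0.19. In iSPN the oligodendrocyte mean was 8.19 ± 0.43 (n = 7), 8.19 ± 0.61 (n = 8) and 7.68 ± 0.29 (n = 8), with no marker called at either dose. Fewer cells of a type and less RNA per cell cannot be told apart in such samples. Markers of the other line shifted too. In lesioned dSPN the mean of 4 iSPN markers was 7.88 on saline, 7.12 at the low and 7.26 at the high dose. Of these 4, 3 fell at each dose and 1 rose at the high dose. In iSPN the mean of 7 dSPN markers was 7.997 in mock mice and 7.32 after lesion on saline, where 4 fell and none rose. The part of these shifts in the differences between lines was not tested.

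**Figure D1:**
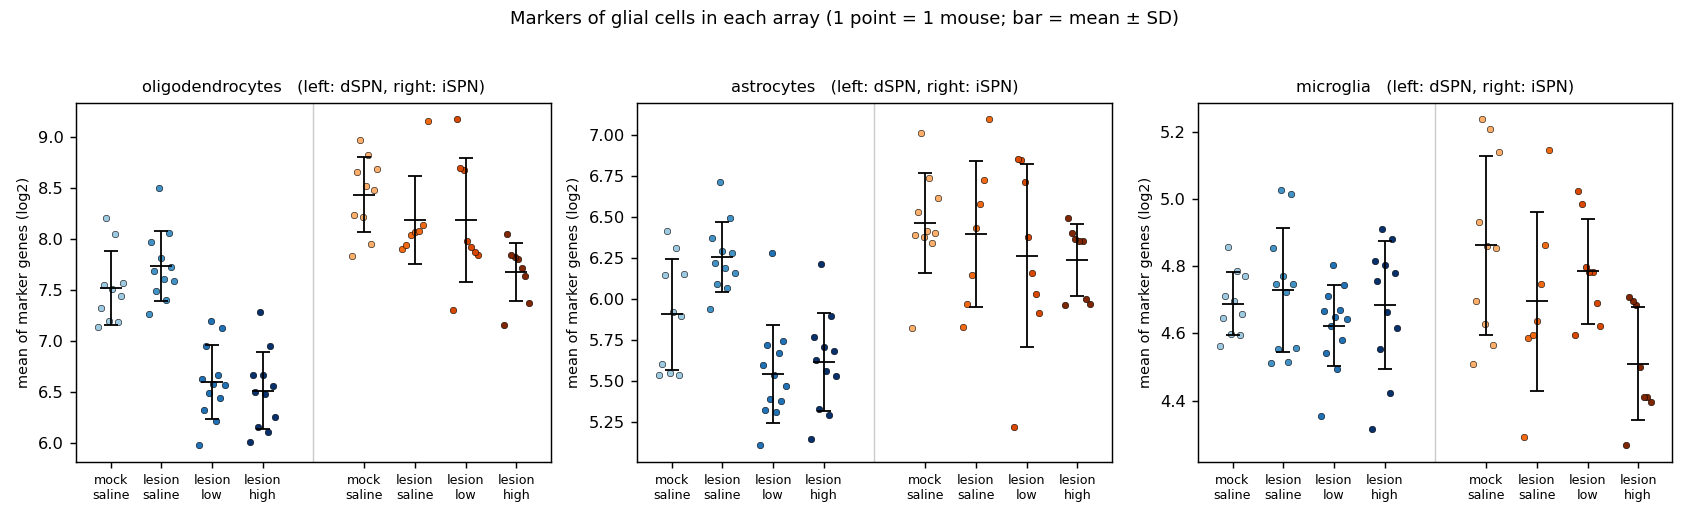
Mean log2 value of the marker genes of oligodendrocytes, astrocytes and microglia in each array (vertical axis) for the 8 groups (horizontal axis; dSPN left, iSPN right); a point is 1 mouse, bars are mean ± SD. In dSPN the oligodendrocyte mean lay at 5.98 to 7.20 at the low dose and 6.02 to 7.29 at the high dose, against 7.27 to 8.50 on saline.

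The first question is how the proton pump differed with levodopa in lesioned dSPN. At the high dose 8 of 18 pump genes rose and none fell, and at the low dose 5 rose and 1 fell. Over all 13271 genes tested, 45.6% were called at an adjusted p under 0.05 at the high dose (20.1% rose and 25.5% fell) and 34.1% at the low dose (15.1% rose and 19% fell). The pump genes were called about as often as genes in general (44.4% and 33.3%), with the calls on the rising side. Their median difference was 0.13 at the high and 0.11 at the low dose, against -0.04 for all genes at either dose. These comparisons share the lesioned saline arrays.

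Atp6v0d1, the V0 subunit that joins the membrane ring to the rotor, separated the groups most clearly. Its log2 values ran from 10.61 to 10.996 (median 10.79) in lesioned dSPN on saline, from 10.91 to 11.34 (median 11.22) at the low dose and from 11.08 to 11.50 (median 11.27) at the high dose. All 11 high-dose mice and 11 of 12 low-dose mice lay above every saline mouse. The difference was 0.50 ± 0.06 (SE) at the high dose, 1.42-fold (adjusted p = 6.32e-12), and 0.40 ± 0.05 at the low dose (adjusted p = 1.34e-08). Inside the 1 run that holds 9 high-dose and 6 saline mice it was 0.54 (adjusted p = 4.37e-05), and with the glial marker means as covariates it was 0.36 at the high and 0.28 at the low dose, called in both.

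Atp6v1h, a regulatory V1 subunit that bridges the sectors, followed the same order. Its values ran from 9.06 to 9.41 (median 9.26) on saline, from 9.28 to 9.79 (median 9.61) at the low dose and from 9.60 to 9.89 (median 9.76) at the high dose. The high-dose and saline mice did not overlap. The differences were 0.49 ± 0.08 (adjusted p = 5.45e-07) and 0.36 ± 0.08 (adjusted p = 0.000267). Averaging all 3 probe sets of the gene, of which the others lie below the filter, gave 0.11 at the high dose, not called (adjusted p = 0.263), and 0.21 at the low dose (adjusted p = 0.0232).

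**Figure D2:**
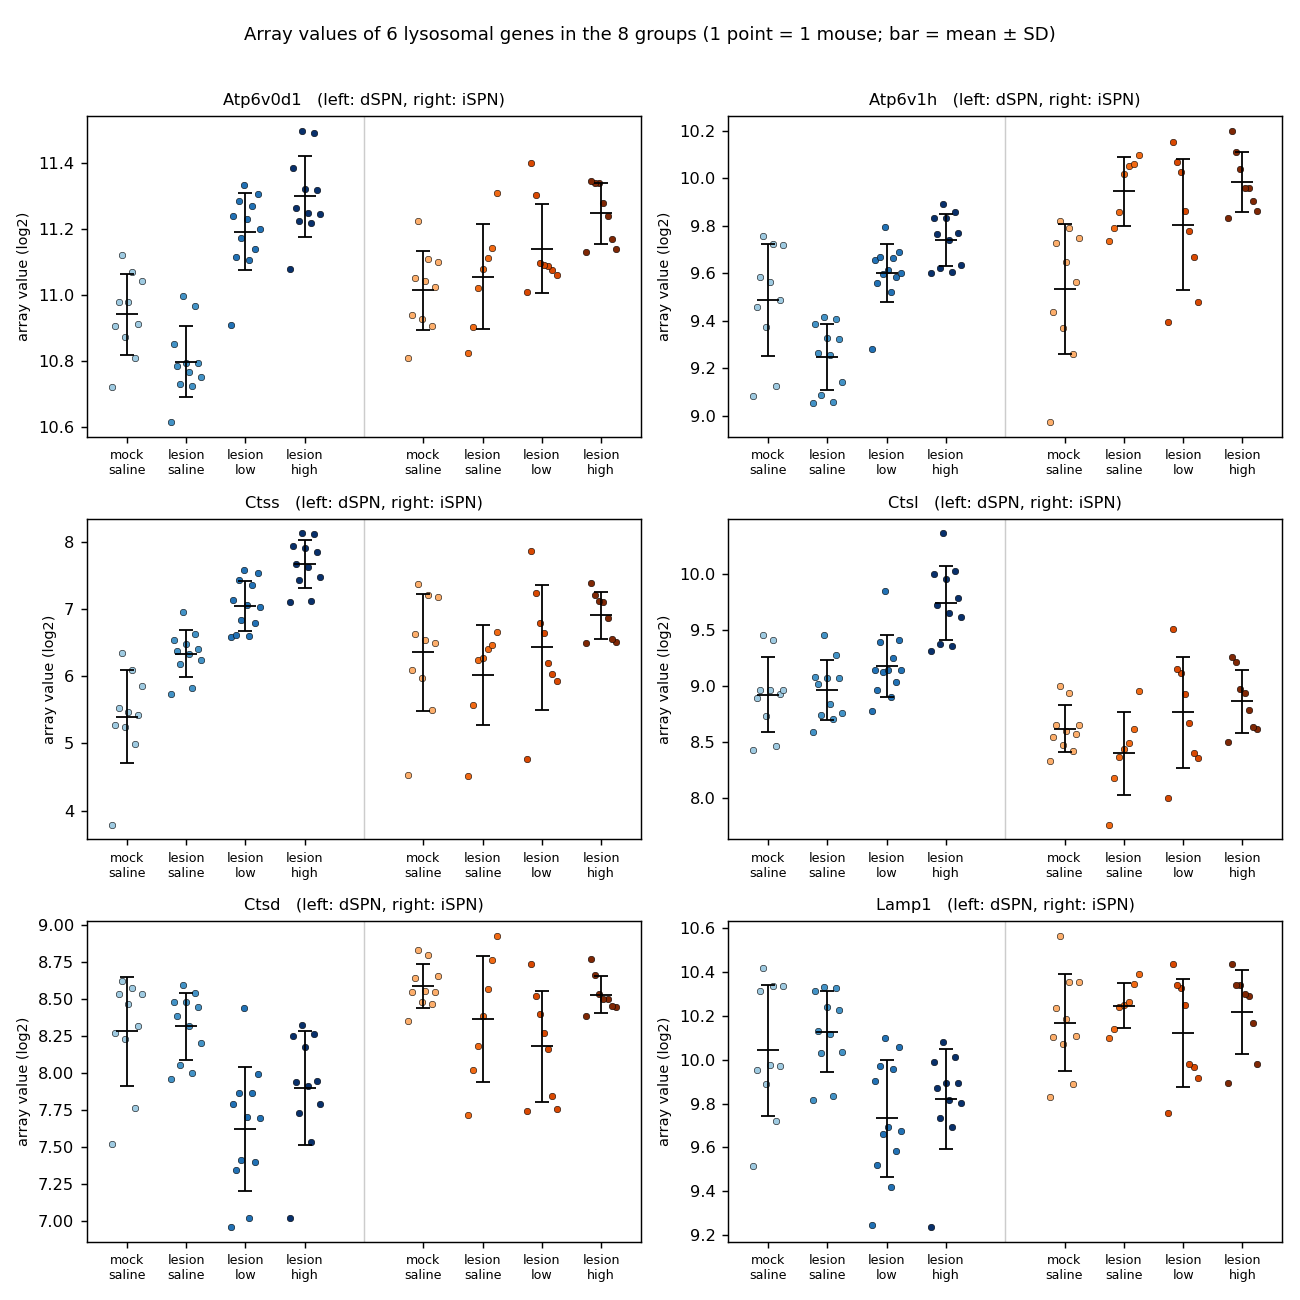
Array values (log2, vertical axis) of Atp6v0d1, Atp6v1h, Ctss, Ctsl, Ctsd and Lamp1 in the 8 groups (horizontal axis; dSPN left, iSPN right); a point is 1 mouse, bars are mean ± SD. In dSPN the high-dose points of Atp6v0d1, Atp6v1h and Ctss lie wholly above the lesioned saline points, while those of Ctsd and Lamp1 all lie below the lesioned saline median.

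The a subunits, which carry the proton path and set where a pump sits, rose as well. Atp6v0a2, the isoform of endosomes and Golgi, ran from 5.56 to 6.61 (median 6.04) on saline, from 6.07 to 7.26 (median 6.37) at the low dose and from 6.27 to 7.08 (median 6.51) at the high dose. The differences were 0.57 ± 0.18 (adjusted p = 0.00563) and 0.47 ± 0.17 (adjusted p = 0.0258), and 5 mice of each dose lay above every saline mouse. Its 3 probe sets all rose at the high dose. Atp6v0a1, the main isoform of neurons and synaptic vesicles, was 0.30 ± 0.10 higher at the high dose (adjusted p = 0.0101), with 8 of 11 mice above every saline mouse, and 0.11 higher at the low dose, not called. With the glial covariates neither a subunit was called at the high dose (adjusted p = 0.167 and 0.315). Over all alternatives the high-dose call held in 8 of 10 for Atp6v0a2. For Atp6v0a1 it held in 6 of 10, with differences from 0.16 to 0.30.

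In the V1 sector 5 of 10 genes rose at the high dose and 3 at the low dose, and none fell. The shares called (50% and 30%) lay near those of all genes (45.6% and 34.1%). The 5 not called at the high dose, among them Atp6v1d, Atp6v1g1 and Atp6v1g2, differed by -0.05 to 0.10. Atp6v1e1, a peripheral stalk subunit, ran from 11.74 to 12.03 (median 11.91) on saline and from 12.04 to 12.25 (median 12.15) at the high dose, with no overlap, and the difference was 0.25 ± 0.06 (adjusted p = 0.000353). The rotor subunit Atp6v1f rose by 0.25 ± 0.07 at the high (adjusted p = 0.00283) and 0.18 ± 0.07 at the low dose (adjusted p = 0.0373). Atp6v1c1, a stator subunit taken up when V1 and V0 assemble, rose by 0.16 ± 0.04 and 0.14 ± 0.04, and each of its 3 probe sets rose at both doses. None of these 3 was called at the high dose with the glial covariates, where the differences were 0.16, 0.11 and 0.11. Atp6v1e2, the testis isoform of the stalk subunit, was called at the high dose (0.27 ± 0.09, adjusted p = 0.00743) at a level close to the filter. Its mean was 3.552 on saline, just under the filter of 3.553, and 3.82 at the high dose.

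The subunits that bind ATP, A (catalytic) and B, did not pass on their brightest probe sets. Atp6v1a differed by 0.07 at the high dose and -0.10 at the low dose, and Atp6v1b2 by 0.08 and 0.02. Of the 3 other probe sets of Atp6v1b2, both above the filter rose at the high dose, by 0.46 and 0.31. The same held for the ring subunit Atp6v0b, at 0.07 on its brightest probe set and 0.51 and 0.18 on the others, both called. The accessory protein Atp6ap2, also known as the prorenin receptor, fell by 0.15 ± 0.05 at the low dose (adjusted p = 0.0118). At the high dose it differed by -0.11 on that probe set, not called, while another probe set of it rose by 0.31. Over all 61 member probe sets above the filter, cathepsins and LAMPs included, 22 rose and 5 fell at the high dose. Of all 23974 probe sets 20.2% rose and 24.7% fell. At the low dose 10 of the 61 rose and 11 fell, against 15.2% and 18.1% of all probe sets.

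The second question is how the proteases and membrane proteins behaved. Of the 12 cathepsin and LAMP genes tested, 2 rose and 3 fell at the high dose, and 1 rose and 6 fell at the low dose. At the high dose these shares (16.7% and 25%) lay near those of all genes (20.1% and 25.5%), and at the low dose 8.33% rose and 50% fell against 15.1% and 19% of all genes. Their median difference was -0.31 at the high and -0.37 at the low dose. At the high dose the members that rose, Ctss and Ctsl, did so by more than any pump gene called.

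Ctss encodes cathepsin S, a cysteine protease best known from microglia and antigen-presenting cells. In dSPN its values ran from 3.79 to 6.34 (median 5.45) in mock mice, from 5.73 to 6.95 (median 6.37) after lesion on saline, from 6.58 to 7.58 (median 7.04) at the low dose and from 7.10 to 8.13 (median 7.67) at the high dose. Every high-dose mouse lay above every saline mouse of either surgery. The high-dose difference from lesioned saline was 1.33 ± 0.26, 2.52-fold (adjusted p = 1.09e-05), and the low-dose difference 0.71 ± 0.25 (adjusted p = 0.0213). Against mock mice the high dose stood 2.27 ± 0.26 higher, 4.82-fold (adjusted p = 2.28e-11).

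Microglia markers moved in different directions with levodopa in lesioned dSPN. Of the 11 tested, 1 was called as rising and 1 as falling at each dose. Whether called or not, 8 of 11 were lower at the high dose (median difference -0.15) and 7 of 11 at the low dose (-0.30). Cd68, the lysosomal macrosialin, rose by 1.69 ± 0.18 at the high and 1.70 ± 0.17 at the low dose. Among markers not called, Aif1 averaged 5.56 on saline, 6.14 at the low and 6.15 at the high dose. Csf1r averaged 5.75, 5.06 and 5.19 in the same order, and C1qc 4.01, 3.29 and 3.44. Tyrobp, a microglial signalling adaptor, fell by 0.76 at the high and 0.99 at the low dose. Cx3cr1 and Tmem119 averaged between 3.41 and 3.89 in the 4 dSPN groups, and P2ry12 and Itgam were below the filter. With the means of the glial markers as covariates the Ctss difference was 1.32 at the high dose (adjusted p = 0.00183) and 0.71 at the low dose, no longer called (adjusted p = 0.119). The microglia mean among them averages Cd68 with markers that fell, and the cell source of Ctss was not tested.

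Ctsl encodes cathepsin L, a cysteine protease of lysosomes that also processes neuropeptide precursors. It ran from 8.59 to 9.46 (median 9.01) on saline, from 8.78 to 9.85 (median 9.14) at the low dose and from 9.31 to 10.36 (median 9.72) at the high dose. The high dose overlapped saline in 3 of 11 mice. The difference was 0.78 ± 0.14 at the high dose (adjusted p = 1.97e-06) and 0.21 ± 0.13 at the low dose, not called. Within the run that holds both groups the high-dose difference was 0.66 (adjusted p = 0.000879), and with glial covariates 0.67 (adjusted p = 0.00186).

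Cathepsin D, the main aspartic protease of lysosomes, moved the other way. Ctsd values ran from 7.96 to 8.59 (median 8.38) on saline, from 6.96 to 8.44 (median 7.70) at the low dose and from 7.02 to 8.33 (median 7.94) at the high dose. It fell by 0.69 ± 0.14 at the low dose (adjusted p = 3.38e-05), where 10 of 12 mice lay below every saline mouse, and by 0.41 ± 0.14 at the high dose (adjusted p = 0.0113). With the glial covariates the differences were -0.73 (adjusted p = 0.0011) and -0.40 (adjusted p = 0.0875).

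The cysteine proteases Ctsb, Ctsz and Ctso also fell at the low dose. Ctsb ran from 10.54 to 11.29 (median 10.96) on saline and from 10.33 to 10.85 (median 10.61) at the low dose, a fall by 0.35 ± 0.10 (adjusted p = 0.00462). It was 0.22 lower at the high dose on that probe set, not called, while 2 of its other probe sets fell at both doses. Ctsz ran from 7.95 to 8.97 on saline and from 7.05 to 8.57 at the low dose and fell by 0.60 ± 0.18 (adjusted p = 0.00707). Both were called with glial covariates, at -0.53 and -0.85. Ctso, dim at 4.38 on saline, fell by 0.82 at the low and 0.84 at the high dose, and these differences were -0.30 and -0.26 with the glial covariates, no longer called.

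Lamp1, a main glycoprotein of the lysosomal membrane, ran from 9.82 to 10.33 (median 10.13) on saline, from 9.24 to 10.10 (median 9.68) at the low dose and from 9.24 to 10.08 (median 9.87) at the high dose. All low-dose and all high-dose mice lay below the saline median. It fell by 0.40 ± 0.10 (adjusted p = 0.000733) and 0.31 ± 0.10 (adjusted p = 0.00778), and remained called with glial covariates at both doses. Lamp2, the receptor of chaperone-mediated autophagy, fell by 1.23 ± 0.44 at the low dose (adjusted p = 0.0224) with a wide spread, from 3.77 to 8.89 on saline and from 4.26 to 6.80 at the low dose. Its 3 other probe sets differed by -0.13, -0.03 and -0.07, none called. The cathepsins Ctsa, Ctse and Ctsf and the neuronal Lamp5 were called at neither dose, with differences from -0.43 to 0.25. Oligodendrocyte and astrocyte markers fell in the same comparisons as these genes (8 of 9 and 4 or 5 of 9); beyond the covariate values given, their part was not tested.

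**Figure D3:**
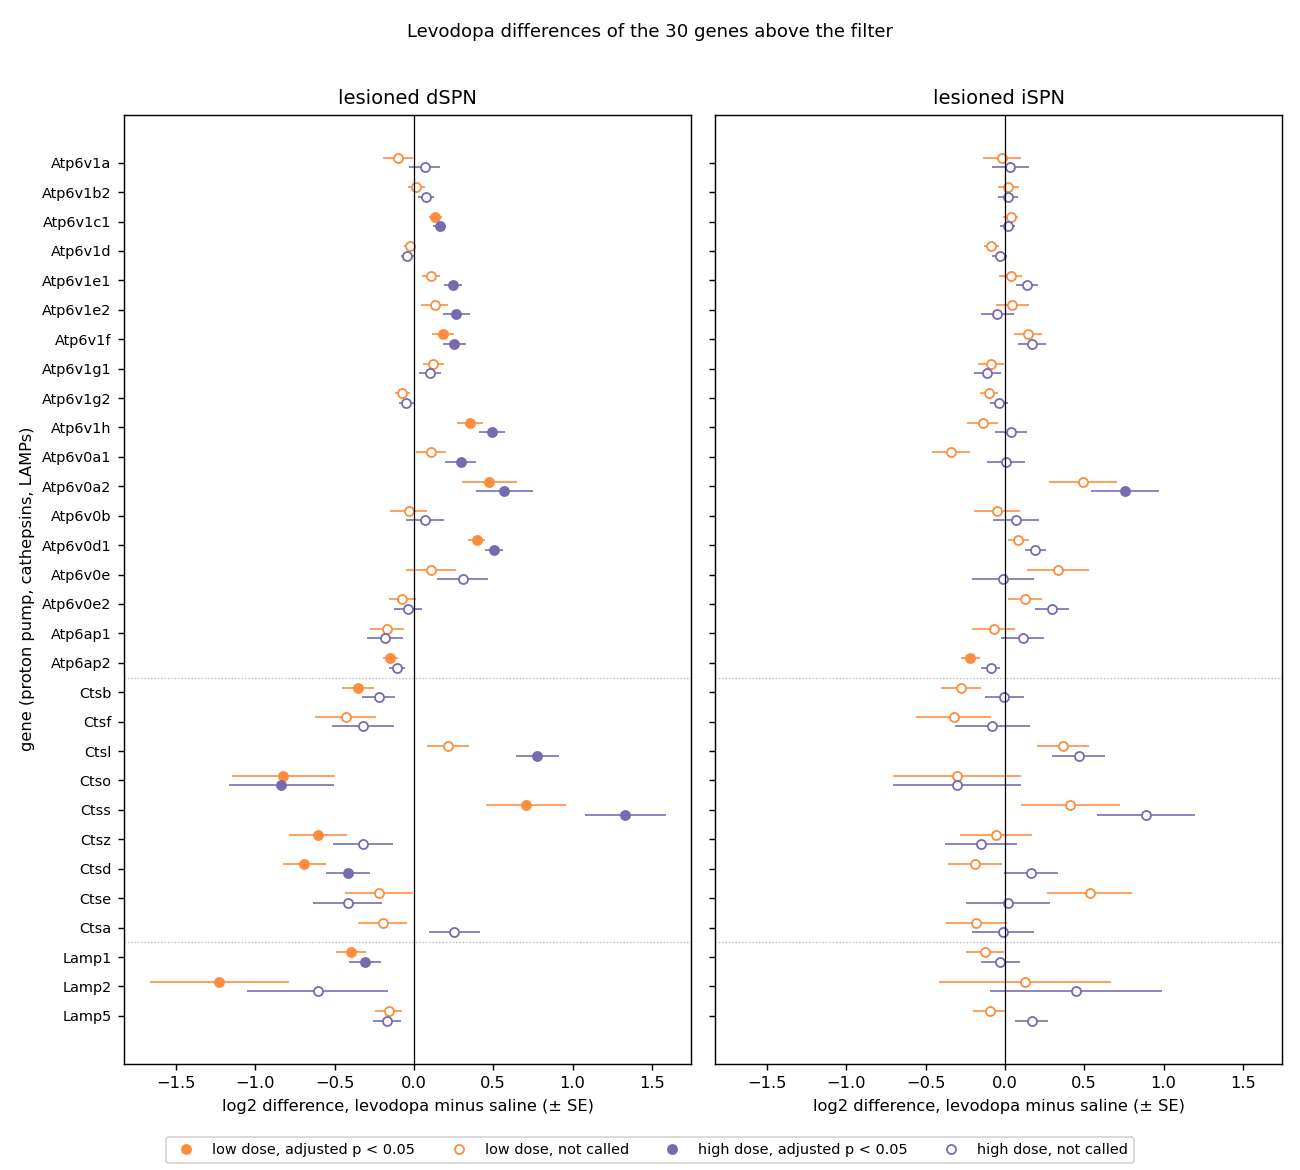
Log2 difference between levodopa and saline (horizontal axis, ± SE) for the 30 genes above the filter (vertical axis; pump genes, then cathepsins, then LAMPs) in lesioned dSPN (left) and lesioned iSPN (right), low dose in orange and high dose in purple; filled points have an adjusted p under 0.05. In dSPN the filled pump points lie right of 0 except Atp6ap2, and in iSPN 1 point is filled at each dose.

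The runs of sample numbers bear on these calls. Of the 13 high-dose calls 8 held within the run that holds both groups. No run holds low-dose and lesioned saline dSPN mice together, so the low-dose difference rests on mice of different runs. With run as a fixed block, which links them through the other groups, 6 of the 13 low-dose calls held: Atp6v0d1 and Ctss on the rising side and Ctsb, Ctsd, Ctsz and Lamp1 on the falling side.

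High and low dose were compared directly in dSPN. Ctsl was the only member called, 0.56 ± 0.13 higher at the high dose (adjusted p = 0.00381; 6.8% of all genes were called, 3.14% higher and 3.66% lower), and all 11 high-dose mice lay above the low-dose median. Averaged with its second, dim probe set it was 0.18 and not called (adjusted p = 0.462). Ctss was 0.62 and Atp6v0d1 0.11 higher at the high dose, neither called.

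Set against mock mice, the high-dose dSPN differed in 6 members (43.4% of all genes were called, 18.4% higher and 25% lower). Ctss (2.27), Ctsl (0.82 ± 0.14), Atp6v0d1 (0.36 ± 0.06), Atp6v1e1 (0.25 ± 0.06) and Atp6v1h (0.25 ± 0.08) were higher, and Ctsd was lower by 0.38 ± 0.14 (-0.38, adjusted p = 0.0246). All 11 high-dose mice exceeded every mock mouse for Ctss and Atp6v1e1, and 10 of 11 did for Atp6v0d1. In this comparison 8 of 9 oligodendrocyte and 3 of 9 astrocyte markers fell, and with the glial covariates Ctss, Ctsl and Atp6v0d1 were called and Atp6v1e1 (0.17), Atp6v1h (0.11) and Ctsd (-0.28) were not. Atp6v1h was at 0.01 over the mean of its probe sets, all but the brightest below the filter (adjusted p = 0.899). Ctsd was at -0.22 with run as a block (adjusted p = 0.431).

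The lesion alone changed 1 member in dSPN, where 2.48% of all genes were called (0.64% rose and 1.84% fell). Ctss rose by 0.94 ± 0.26 (adjusted p = 0.0315), and 6 of 11 lesioned mice lay above every mock mouse. Within the run that holds 5 lesioned and 4 mock mice the difference was 0.57 (adjusted p = 0.531), and with run as a block 0.74 (adjusted p = 0.532). It was 0.93 with the glial covariates (adjusted p = 0.0595). Among pump genes the lesion differences ran from -0.47 (Atp6v0a2) to 0.13 (Atp6v1g2), none called, with a median of -0.09. Atp6v0d1 was at -0.14 ± 0.06 and Atp6v1h at -0.24 ± 0.08. The lesion and levodopa differences share the lesioned saline arrays with opposite sign, so opposite signs between them are no separate result.

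In iSPN the lesion raised 3 members, where 6.2% of all genes were called (3.19% rose and 3.01% fell). Atp6v1h ran from 8.97 to 9.82 (median 9.61) in mock and from 9.74 to 10.10 (median 10.02) in lesioned mice. It rose by 0.41 ± 0.09 (adjusted p = 0.00256), and 5 of 7 lesioned mice lay above every mock mouse. Over the mean of its 3 probe sets, all but the brightest below the filter, the difference was 0.03 (adjusted p = 0.91). Lamp5, a LAMP protein of neurons, ran from 10.10 to 10.69 (median 10.52) in mock and from 10.50 to 11.31 (median 10.75) in lesioned mice and rose by 0.42 ± 0.10 (adjusted p = 0.00416). Atp6v1b2, an ATP-binding subunit, rose by 0.21 ± 0.06 (adjusted p = 0.0259), and by 0.14 without the 3 arrays of low correlation, no longer called (adjusted p = 0.185). None of the 3 was called with run as a block (differences 0.37, 0.38 and 0.22); 9 of the 10 mock mice lie in a run with 1 lesioned mouse.

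Levodopa moved few members in lesioned iSPN. At the high dose Atp6v0a2 rose by 0.76 ± 0.21 (adjusted p = 0.014; 9.86% of all genes were called, 6.27% rising and 3.59% falling), from 5.37 to 6.92 (median 6.25) on saline to 6.80 to 7.32 (median 7.11). It was the only member called at the high dose in both lines. Within the run of 8 high-dose and 2 saline mice it was 0.62 (adjusted p = 0.263). Ctss was 0.89 ± 0.31 higher (adjusted p = 0.0528), Ctsl 0.46 ± 0.17 (adjusted p = 0.0604) and Atp6v0d1 0.19 ± 0.07 (adjusted p = 0.058), each just outside the threshold.

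At the low dose Atp6ap2 fell by 0.22 ± 0.06 (adjusted p = 0.0182; 4.18% of all genes were called, 2.41% rising and 1.77% falling), with 6 of 8 mice below every lesioned saline mouse. It was -0.19 both with run as a block (adjusted p = 0.138) and within the run of 8 low-dose and 4 saline mice (adjusted p = 0.618), called in neither. Between the doses no member was called in iSPN by limma, 6 were at an unadjusted p under 0.05, and 0.173% of all genes were called (0.113% higher and 0.0603% lower). Against mock mice the high-dose iSPN were higher in 6 members and lower in none (18.7% of all genes were called, 10.4% higher and 8.27% lower). These were Lamp5 (0.59 ± 0.10), Atp6v0a2 (0.53 ± 0.20), Atp6v1h (0.45 ± 0.09), Atp6v0d1 (0.23 ± 0.06), Atp6v1b2 (0.23 ± 0.06) and Atp6v1e1 (0.18 ± 0.07). Atp6v0a2 (limma, adjusted p = 0.048) and Atp6v1e1 (adjusted p = 0.0491) lay just inside the threshold. Their calls held in 3 of 9 and 1 of 9 alternatives. All 8 high-dose mice exceeded every mock mouse for Atp6v1h. With run as a block none of the 6 was called (differences from 0.16 to 0.60); 9 of the 10 mock mice lie in 1 run and all 8 high-dose mice in another. Over the mean of its probe sets, all but the brightest below the filter, Atp6v1h was at 0.04 (adjusted p = 0.825). In that comparison 8 of 9 oligodendrocyte markers fell, and Lamp5 and Atp6v1h were the 2 that stayed called with the glial covariates.

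Whether the lines responded differently was tested by the interaction (dSPN effect minus iSPN effect). Atp6v1h differed in all 3: by -0.65 ± 0.13 for the lesion (adjusted p = 0.000213), 0.46 ± 0.13 for the high dose (adjusted p = 0.00532) and 0.50 ± 0.13 for the low dose (adjusted p = 0.00388). Its lesion effect was -0.24 in dSPN and 0.41 in iSPN, and its high-dose effect 0.49 and 0.04. These line differences rest on the brightest probe set: over the mean of all 3 they were -0.12 (adjusted p = 0.656), 0.10 (adjusted p = 0.603) and 0.18 (adjusted p = 0.361). The others lie below the filter, and averaging in dim probe sets can shrink a difference. The lost calls therefore cannot show whether the probe sets disagree. Atp6v0d1 responded more in dSPN, by 0.31 ± 0.09 at the high (adjusted p = 0.00543) and by 0.31 ± 0.09 at the low dose (adjusted p = 0.00885). The 3 interactions share the lesioned saline arrays of both lines, which enter the lesion and levodopa terms with opposite sign. Agreement between them, for Atp6v1h or for Atp6v0d1, is therefore no separate result.

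Atp6v0a1 differed at the low dose (0.45 ± 0.15, adjusted p = 0.0366; 0.11 in dSPN and -0.34 in iSPN). Ctsd differed at the high dose (-0.58 ± 0.22, adjusted p = 0.0435; -0.41 and 0.16). Ctss differed for the lesion (1.27 ± 0.39, adjusted p = 0.0427; 0.94 and -0.33). Over all genes 4.86% were called for the lesion (1.65% above 0 and 3.21% below), 25% for the high dose (10.5% and 14.5%) and 14.8% for the low dose (6.99% and 7.79%). The levodopa responses of Ctss and Ctsl did not pass: at the high dose the line difference was 0.44 ± 0.40 for Ctss (adjusted p = 0.465) and 0.31 ± 0.22 for Ctsl (adjusted p = 0.309). With run as a block 1 of these 8 interaction calls held, Atp6v0d1 at the high dose (0.37, adjusted p = 0.0161). Over all alternatives this Atp6v0d1 call held in 7 of 8, with differences from 0.22 to 0.37 and a highest limma adjusted p of 0.063. The Ctsd call held in 2 of 8, and the Ctss and Atp6v0a1 calls in 4 of 8 each. The levodopa effect on oligodendrocyte markers was also more negative in dSPN, called for 4 of 9 at the high and 6 of 9 at the low dose. Its median was -1.30 in dSPN and -0.50 in iSPN at the high dose, and -1.32 and 0.02 at the low dose. With the glial covariates no low-dose interaction call held.

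**Figure D4:**
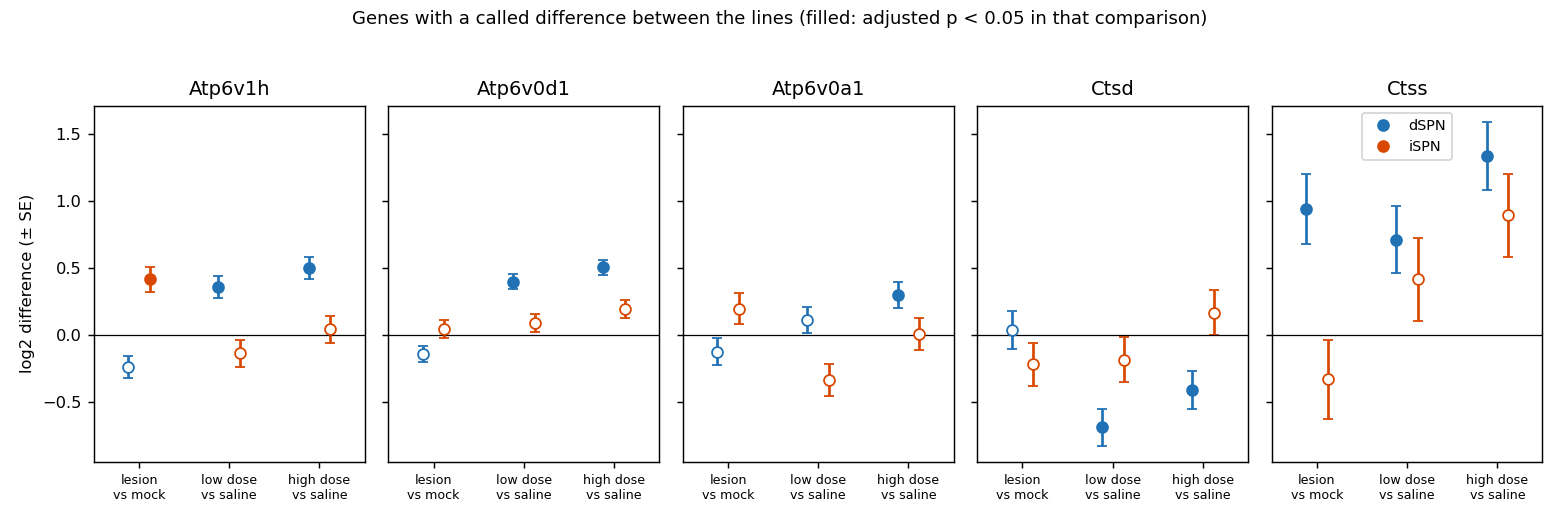
Log2 difference (vertical axis, ± SE) for lesion against mock, low dose against saline and high dose against saline (horizontal axis) in dSPN (blue) and iSPN (orange) for the 5 genes with a called difference between lines; filled points have an adjusted p under 0.05 in that comparison. Atp6v1h lies at -0.24 in dSPN and 0.41 in iSPN after the lesion and at 0.49 and 0.04 at the high dose.

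In mock mice the lines themselves differed in 10 members, where 22.5% of all genes were called (11.6% higher in dSPN and 10.9% lower), and line and run cannot be told apart. Higher in dSPN were Lamp2 (1.35 ± 0.47), Atp6v0a1 (0.57 ± 0.10), Lamp5 (0.43 ± 0.09), Atp6v1a (0.40 ± 0.10), Atp6v1f (0.29 ± 0.08), Atp6v1g1 (0.28 ± 0.07) and Atp6v1d (0.12 ± 0.04). Lower in dSPN were Ctss (-0.95 ± 0.27), the V0 subunit Atp6v0e (-0.64 ± 0.17) and Ctsz (-0.58 ± 0.20). Lamp5 ran from 10.66 to 11.10 in dSPN and from 10.10 to 10.69 in iSPN, and 8 of 10 dSPN mice lay above every iSPN mouse. Atp6v1a, the catalytic subunit, was likewise above every iSPN mouse in 8 of 10. Over the mean of all probe sets of a gene 3 of these were no longer called, Lamp2 at 0.12 (adjusted p = 0.722), Atp6v0a1 at 0.13 (adjusted p = 0.468) and Atp6v1g1 at 0.02 (adjusted p = 0.874). Between the same mice 7 of 9 oligodendrocyte markers and 3 of 9 for astrocytes were also lower in dSPN. With glial covariates 4 of the 10 calls held: Atp6v0a1, Atp6v1a and Lamp5 on the higher side and Ctsz on the lower.

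Other gene lists place the members within the pathway, to be read against the 45.6% of all genes called at the high dose (20.1% rose and 25.5% fell) and the 34.1% called at the low dose (15.1% and 19%). The alternatives, run as a block and glial covariates among them, were computed for the members and not for these lists. Of 11 genes of pump assembly and regulation, 3 rose and 7 fell in dSPN at the high dose, and 2 rose and 5 fell at the low dose. Dmxl2, a rabconnectin that promotes V1 and V0 assembly, fell by 1.01 ± 0.13 and 0.82 ± 0.12, and Ccdc115, an assembly factor, by 0.79 ± 0.11 and 0.47 ± 0.11. Dmxl1, the other rabconnectin, fell by 0.58 ± 0.19 at both doses, and Wdr7, their partner, by 0.80 ± 0.11 at the low dose. Tcirg1, which encodes the a3 isoform of the V0 a subunit under another name, rose by 0.67 ± 0.13 (adjusted p = 8.9e-06) and 0.42 ± 0.12 (adjusted p = 0.00537), as Atp6v0a2 did.

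Of 32 other lysosomal hydrolases, 2 rose and 11 fell at the high dose and 1 rose and 10 fell at the low dose, so that 40.6% and 34.4% were called, near the shares of all genes. Gla, alpha-galactosidase A, rose by 2.72 ± 0.28 (adjusted p = 2.09e-13) and 1.89 ± 0.27, while acid phosphatase Acp2 fell by 1.77 ± 0.19 and 1.34 ± 0.18. Neu1, a sialidase, fell by 1.08 ± 0.44 at the high dose and the glycogen-degrading Gaa by 0.86 ± 0.14 at the low dose. Of 21 other membrane proteins 1 rose and 6 fell at the high dose and 1 rose and 5 fell at the low dose (33.3% and 28.6% called, below the share of all genes). Scarb2, the LIMP-2 carrier of glucocerebrosidase, fell by 1.44 ± 0.20 and 1.12 ± 0.20. Mfsd8, a lysosomal membrane transporter-like protein, fell by 1.80 ± 0.29 at the high dose, and the amino acid sensor Slc38a9 by 1.24 ± 0.22 and 0.77 ± 0.21. The calcium channel Mcoln1 was the gene that rose, by 0.48 ± 0.15 at the high dose.

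Of 20 sorting genes 3 rose and 8 fell at the high dose and 1 rose and 4 fell at the low dose. Igf2r, the large mannose 6-phosphate receptor, fell by 1.33 ± 0.27 at the high dose, and Vps33a, which serves fusion with lysosomes, by 0.84 ± 0.12 and 0.60 ± 0.12. The adaptor subunit Ap1s1 rose by 0.32 ± 0.08 at the low dose. Of 19 regulators 1 rose and 5 fell at each dose. Tfeb, Tfe3 and Mitf, given here because they bind CACGTG, differed by -0.15, -0.36 and -0.39 at the high dose, none called, and Mitf fell by 0.45 ± 0.18 at the low dose and, in lesioned iSPN at the high dose, by 0.76 ± 0.23. Tsc1, which restrains mTORC1, fell by 0.89 ± 0.11 and 0.55 ± 0.11.

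Of 23 autophagy genes 6 rose and 9 fell at the high dose and 7 rose and 9 fell at the low dose. At the high dose the kinase Ulk1, which starts autophagy, fell by 0.66 ± 0.15 and its partner Rb1cc1 by 0.63 ± 0.12, and Atg16l1, part of the lipidation complex, rose by 0.64 ± 0.13. At the low dose Atg7 fell by 0.73 ± 0.22 and Atg9a by 0.65 ± 0.14. Of 4 cathepsin inhibitors 1 rose and 2 fell at each dose. Cstb, the cytosolic inhibitor stefin B of cysteine cathepsins, rose by 0.79 ± 0.07 (adjusted p = 1.43e-14) and 0.37 ± 0.07, and Cst6 fell by 0.66 ± 0.17 and 0.62 ± 0.17. Cstb also rose in lesioned iSPN at the high dose, by 0.34 ± 0.09 (adjusted p = 0.00882).

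Counts in iSPN were not tested against those in dSPN. All 8 high-dose iSPN mice lie in 1 run and all 8 low-dose iSPN mice in another. At the iSPN high dose 1 assembly factor rose and 1 fell, 1 hydrolase fell, 2 membrane proteins rose and 1 fell, 2 sorting genes rose and 1 fell, and 2 regulators rose and 2 fell. At the iSPN low dose 3 hydrolases, 1 membrane protein and 1 regulator fell, and no gene of these lists rose. Of 23 autophagy genes 4 rose at the high dose and 4 at the low dose (17.4% each) and none fell, where 6.27% of all genes rose and 3.59% fell at the high dose and 2.41% and 1.77% at the low dose. Atg12, a ubiquitin-like conjugation protein of autophagosome formation, rose by 0.59 ± 0.13 (adjusted p = 0.00115) and 0.43 ± 0.13 (adjusted p = 0.0412), and Atg5, its conjugation partner, by 0.43 ± 0.13 and 0.62 ± 0.13. Gabarap and Map1lc3b, which coat autophagosomes, rose by 0.20 to 0.25 at both doses.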

How the data were processed

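The authors deposited log2 expression values per probe set of the Affymetrix mouse 430 2.0 array, made with RMA and the affy package per the submitters' processing notes, with no version given. Of 45101 probe sets, 34958 carried a single symbol in the platform annotation and 9211 none; 932 with several symbols were left out. Each gene took its probe set with the highest mean, and 13271 genes passed the filter at the 40th percentile (3.55). One limma 3.58.1 fit (R 4.3.3; lmFit, eBayes, two-sided) of the 8 groups used every array, which left 69 residual degrees of freedom; it was checked on simulated data. A gene was called at a Benjamini-Hochberg adjusted p under 0.05 over all genes of a comparison. No arrays were identical. The members and lists were chosen with earlier results of these data known, so their counts are descriptions. Members called with the largest differences, up to 8 each way, and those called in an interaction were described in full, and up to 4 called genes of each other list. Alternatives were run as a block, each line alone, array weights, other filters, the mean of all probe sets, quantile normalization, glial marker means as covariates, leaving out 3 arrays, and single runs. Promoters came from RefSeq (GRCm38.p6).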

Additional observations from a re-analysis of the deposited data

Results flagged for a closer look

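Members whose effect differed between lines by the interaction test were Atp6v1h for the lesion (-0.65, adjusted p = 0.000213), the high dose (0.46, adjusted p = 0.00532) and the low dose (0.50, adjusted p = 0.00388), and Atp6v0d1 for the high dose (0.31, adjusted p = 0.00543) and the low dose (0.31, adjusted p = 0.00885). The others were Ctss for the lesion (1.27, adjusted p = 0.0427), Ctsd for the high dose (-0.58, adjusted p = 0.0435) and Atp6v0a1 for the low dose (0.45, adjusted p = 0.0366), each in dSPN minus iSPN.

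In groups of at most 10 mice, 1 mouse stood far from the others in 9 of 115 combinations of a called gene and a group, where chance gives about 1 in 20. In mock iSPN these were Atp6ap2 at 12.41 and Atp6v1b2 at 11.08, both low. In lesioned iSPN on saline they were Atp6v1b2 at 11.93 and Lamp2 at 8.28, both high, and Atp6v1e1 at 11.60, low. In iSPN on levodopa they were Atp6v0a1 at 9.11 (high dose) and Ctsz at 8.14 (low dose), both low. In mock dSPN they were Atp6v1d at 12.74, high, and Ctss at 3.79, low.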

How the results depend on the processing

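Of 125 recomputed counts of called members, 86 stayed within 1.5 times the reported one and 39 did not. Of 550 recomputed member calls 436 held, 114 lost the threshold and 0 reversed. Reported counts come first in each clause. With run as a fixed block, dSPN lesion went from 1 to 0, dSPN low dose from 13 to 6, iSPN lesion from 3 to 0, iSPN high dose from 1 to 0, iSPN low dose from 1 to 0, iSPN high dose against mock from 6 to 0, and the interactions from 2 to 0 (lesion), 3 to 1 (high) and 3 to 0 (low). With each line fitted alone, dSPN lesion went from 1 to 2, dSPN high against low from 1 to 3, iSPN lesion from 3 to 1, and iSPN high and low dose from 1 to 0 each. With array weights, dSPN lesion went from 1 to 5, high against low from 1 to 3, and the lesion and high-dose interactions from 2 to 4 and 3 to 5. With the mean of all probe sets, dSPN lesion went from 1 to 2, high against low from 1 to 0, iSPN high and low dose from 1 to 2 each, and the lesion and low-dose interactions from 2 to 4 and 3 to 1. With glial covariates, dSPN lesion went from 1 to 0, dSPN high dose from 13 to 8, iSPN low dose from 1 to 2, iSPN high dose against mock from 6 to 2, the line difference from 10 to 4, and the lesion and low-dose interactions from 2 to 1 and 3 to 0. Without the 3 arrays of low correlation, dSPN high against low went from 1 to 2, iSPN high dose from 1 to 2 and the lesion interaction from 2 to 1. With no filter the lesion interaction went from 2 to 1, and with the filter at the 60th percentile iSPN high dose from 1 to 5. Runs 1, 6 and 7 alone gave 0 for dSPN lesion, iSPN high and iSPN low dose. The cause of these shifts was not tested. No paired analysis was possible because the labels give no replicate numbers shared between groups. A probe's brightness limits what can be read of dim members, and scanner files were not used here.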
